A study of Homo sapiens with 14 samples.

Results

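Collagen genes were taken as every gene of the deposited table whose symbol is COL, a number, A and a number. This gave 44 genes of the 58051 in the table. Of these, 36 reached a normalized count of 10 in 3 or more of the 14 libraries and were tested together with every other gene that passed, 17102 in all. The 8 that did not pass were COL4A3, COL4A4, COL6A5, COL6A6, COL10A1, COL19A1, COL20A1 and COL21A1.

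RNA was sequenced from cultures that model progenitors of the medial ganglionic eminence (MGE), the part of the embryonic ventral forebrain where many cortical interneurons arise. They were made from H9, a line of human embryonic stem cells, and collected at day 25. On days 0 to 6 every group was given 2 µM SB431542 and 200 nM LDN193189, inhibitors of TGF-beta and BMP signalling. All then received SHH at 250 ng/mL with purmorphamine, a smoothened activator, at 0.3 µM on days 10 to 17, and were grown as neurospheres. The groups were wild type (WT, n = 3), CTNNB1 knockout (KO, n = 5), a line with inducible CTNNB1 overexpression that got no doxycycline (OE without Dox, n = 3) and that line with doxycycline at 0.1 µg/mL on days 17 to 25 (OE with Dox, n = 3). No WT library received doxycycline, so effects of the drug and of the transgene cannot be told apart. The labels do not give the form of CTNNB1 that was expressed, how the knockout was made, or the number of clones behind a line. Nothing in them shows that replicates came from separate differentiations, so p-values measure only the spread between these samples, which may be technical.

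Collagens are extracellular matrix proteins built from chains that fold as trimers. Fibrillar collagens form the fibrils of connective tissue, collagen IV forms the sheet of basement membranes, collagen VI forms beaded filaments, and FACIT collagens sit on the surface of fibrils. In the developing brain, collagens are best known from the pial basement membrane, the blood vessels and the meninges, where mesenchymal and vascular cells make much of them. Beta-catenin, the product of CTNNB1, acts at cell junctions and as the coactivator of TCF/LEF factors in WNT signalling.

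Reads in genes numbered 5233270 to 5639725 per library, and a count of 0 allows up to 3 reads, or 2.60 to 2.84 normalized counts, for counting error only. CTNNB1 itself (ENSG00000168036, hg38 chromosome 3, 41194741 to 41260096) ranged from 3248 to 4393 normalized counts in WT and from 2090.3 to 2779 in KO. Its range was 3084 to 3633 in OE without Dox and 23861 to 31290.1 in OE with Dox. CTNNB1 transcript was thus still present in KO, with a log2 fold of -0.67 against WT (SE 0.13, limma, Benjamini-Hochberg adjusted p = 0.001). All 10 MGE markers passed the filter, and their summed count was 3050.0 to 3274 for WT, 10249.6 to 12248 for KO, 7095 to 11139 for OE without Dox and 1989.8 to 2881 for OE with Dox. For COL3A1 and related genes, WT replicate 2 and OE without Dox replicate 2 stood apart from the other libraries of their groups. Counts of collagens are therefore also given without these libraries.

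Collagen RNA was higher in OE with Dox than in OE without Dox. The 44 genes together held 0.249% ± 0.0151 of all normalized counts in WT (SD, n = 3), 0.229% ± 0.0328 in KO (n = 5), 0.268% ± 0.0340 in OE without Dox (n = 3) and 0.466% ± 0.123 in OE with Dox (n = 3). The 3 OE with Dox libraries, at 0.388% to 0.608%, lay above every other library, the highest of which was at 0.296%. In bulk RNA, a change in the number of cells of a type and a change in RNA per cell cannot be told apart.

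With Dox, 16 of the 36 tested collagens were called, against 25.7% of all tested genes, 12 of them higher and 4 lower than without it (limma on log2 of the normalized count plus 1, Benjamini-Hochberg adjusted p under 0.05 over all tested genes). The share higher was 33.3%, against 12.8% of all tested genes, and the share lower was 11.1%, against 12.9%. COL15A1, called higher, reached the filter value of 10 only in OE with Dox, as did COL8A2 and COL17A1, which were not called. Elsewhere COL6A3, also called higher, reached it only in WT replicate 2 and OE without Dox replicate 2. These genes entered the tests only through the group where they were high, so their part in the share higher is not independent of the filter. The median log2 fold was 0.81 over the collagens and 0.02 over all tested genes. Groups did not overlap for 17 collagens, 14 above and 3 below, which is 47.2%, against 40.7% of all tested genes. Without WT replicate 2 and OE without Dox replicate 2, 13 collagens were higher and 3 lower. When replicate numbers were blocked, 16 were higher and 3 lower. That fit used the libraries numbered 1 to 3 of all 4 groups, without KO replicates 4 and 5.

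The comparison of KO with WT called 7 collagens. COL8A1, COL9A3 and COL22A1 were higher, and COL4A6, COL6A2, COL23A1 and COL25A1 were lower. The 7 called of 36 compare with 13.8% of all tested genes. The shares, 8.33% higher and 11.1% lower, are near those of all tested genes, 6.64% and 7.15%. The median log2 fold was -0.21, against -0.02 for all tested genes. Groups did not overlap for 9 collagens, or 25.0%, against 18.1% of all tested genes. Without WT replicate 2 and OE without Dox replicate 2, 3 were higher and 2 lower, with COL4A6 and COL25A1 no longer called.

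**Figure D1:**
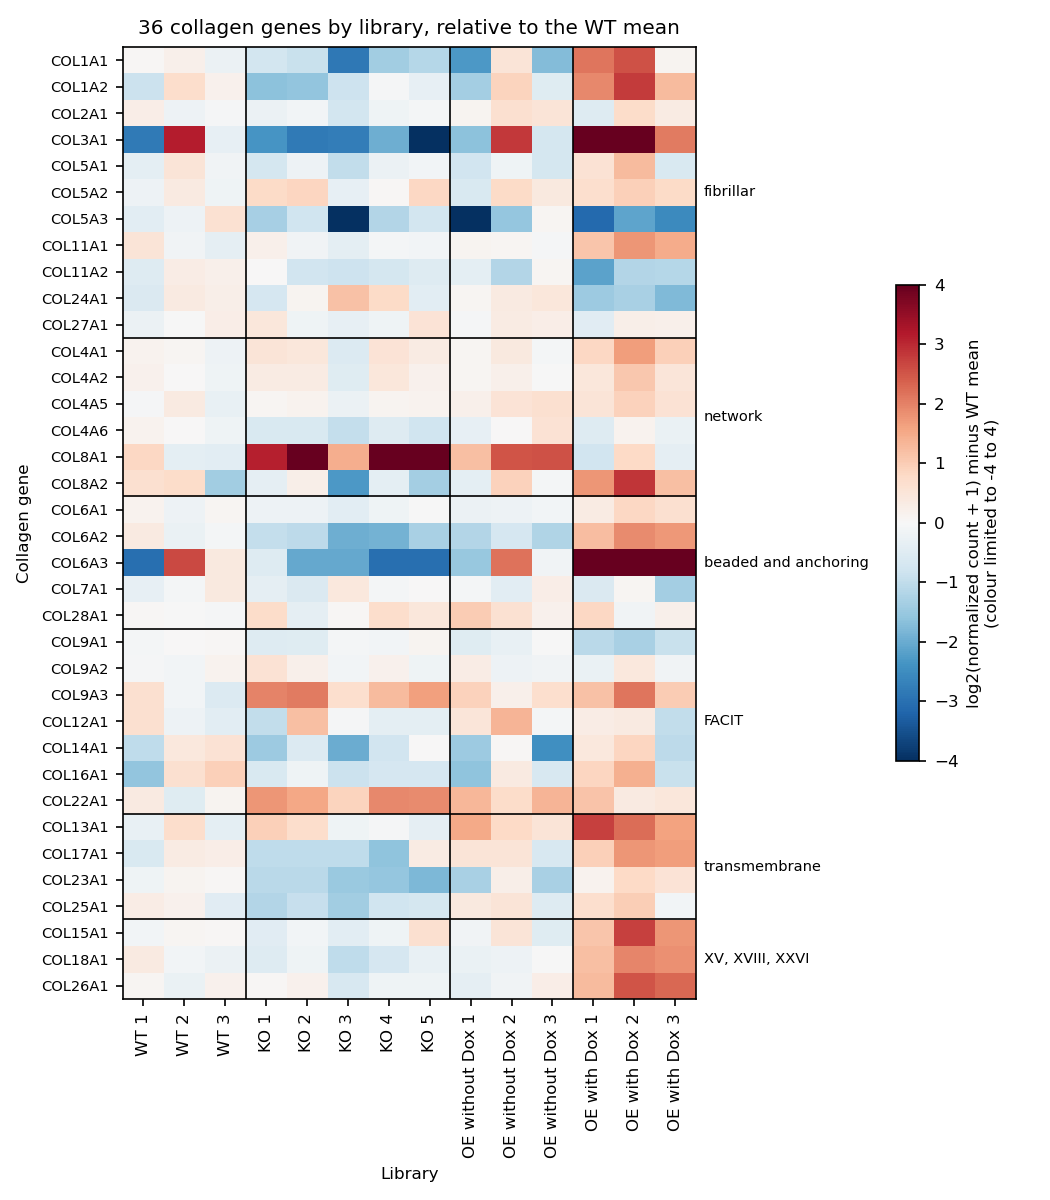
Each of the 36 tested collagens (vertical axis) in each of the 14 libraries (horizontal axis), coloured by log2 of the normalized count plus 1 minus the WT mean, with colour limited to 4 in either direction. The 3 OE with Dox columns are high for COL6A2, COL6A3, COL18A1 and COL26A1, and the 5 KO columns are high for COL8A1 and COL22A1.

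**Figure D2:**
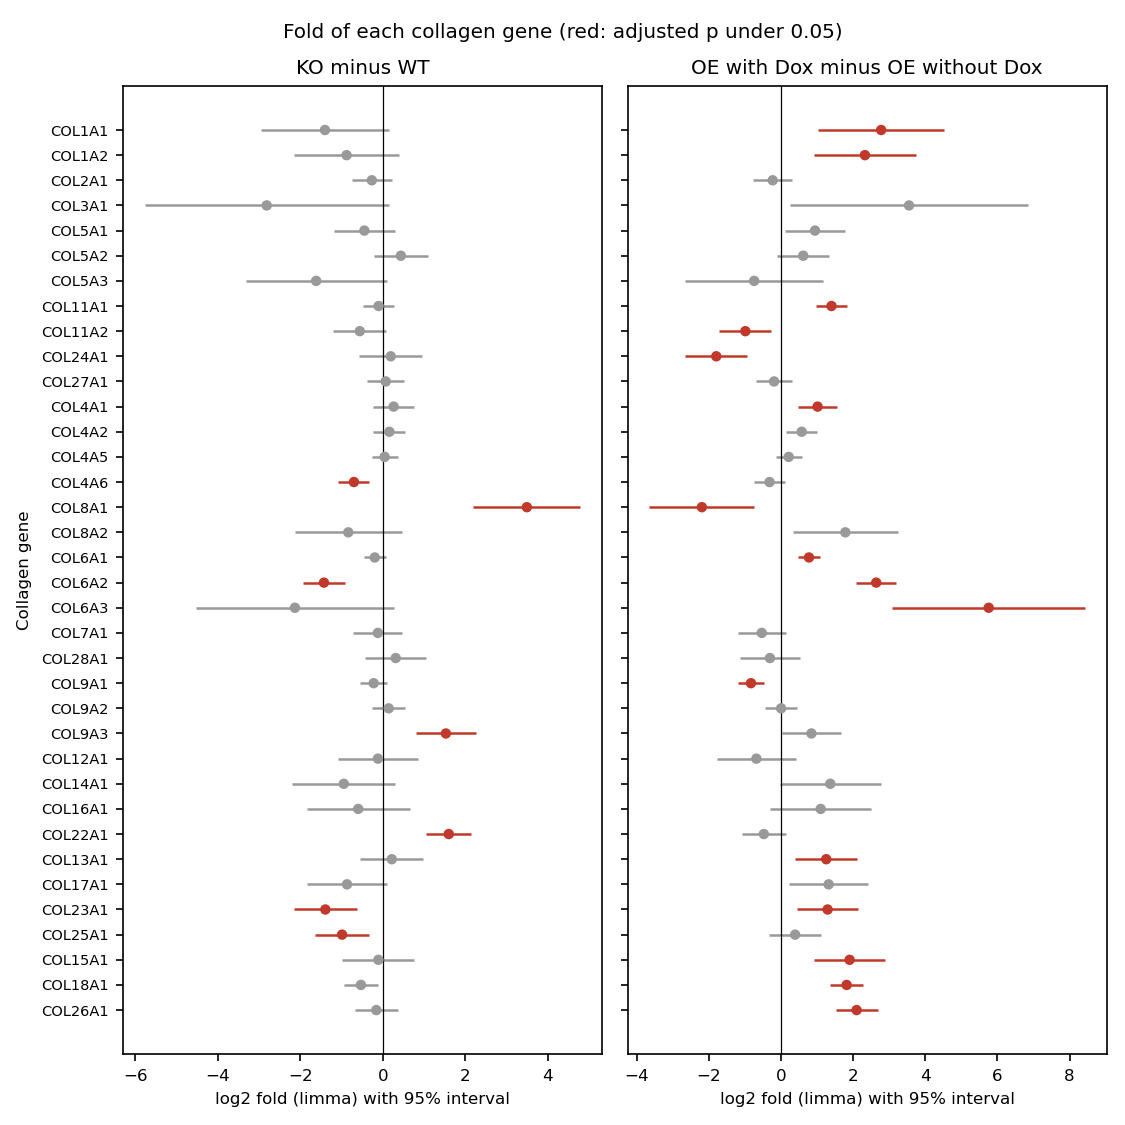
Log2 fold with its 95% interval (horizontal axis) for each tested collagen (vertical axis) in KO against WT and in OE with Dox against OE without Dox, with calls at adjusted p under 0.05 in red. With Dox 12 genes are called to the right of 0 and 4 to the left, and in KO 3 and 4.

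Per kilobase of exon, which allows genes to be compared, COL6A1 and COL2A1 stood first in WT at a mean normalized count of 269 ± 34.0 and 226 ± 37.6 per kb (SD, n = 3). COL6A1 was above COL2A1 per kb in each WT library, although the ranges of the libraries overlapped, and the difference was not tested. COL4A6 at 115 ± 12.4, COL18A1 at 103 ± 23.5 and COL4A5 at 103 per kb followed and did not differ beyond their spread. COL4A2 at 81.8, COL11A1 at 80.3, COL6A2 at 64.1, COL26A1 at 58.7 and COL3A1 at 55.7 per kb completed the first 10. The COL3A1 mean, with an SD of 83.1, rests on WT replicate 2, and without that library it was 7.85 per kb, rank 22. In OE with Dox the order was COL6A1 at 410.2 ± 69.8, COL18A1 at 329 ± 85.5, COL3A1 at 289 ± 202, COL2A1 at 271 ± 110 and COL26A1 at 253 ± 101 per kb (SD, n = 3). COL6A1 was above COL18A1 in each of these libraries, although their ranges overlapped. From COL18A1 on, neighbours in this order did not differ beyond their spread. COL22A1 was at 109.5 ± 27.4 per kb in KO (n = 5) and 36.1 ± 10.4 in WT. Its rank was 3 in KO and 13 in WT, but in KO it did not differ beyond the spread from COL4A5 at 105 ± 11.2 and COL4A2 at 93.0 ± 20.4, nor in WT from COL9A2 at 38.4 ± 3.70 and COL5A1 at 35.4 ± 11.8.

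Of the beaded and anchoring collagens, 5 of 7 genes were tested. With Dox COL6A1, COL6A2 and COL6A3, the chains of the classical collagen VI trimer, all rose (60.0% of the 5 tested, against 12.8% of all tested genes). In KO COL6A2 alone of the class was called, as lower (20.0%, against 7.15%). COL6A1 and COL6A2 are neighbours on hg38 chromosome 21 (45981770 to 46005050 and 46098112 to 46132848), whereas COL6A3 is on chromosome 2 (237324003 to 237414328).

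COL6A2 stood at 434, 277 and 315 normalized counts in WT and at 174, 161, 86.9, 89.8 and 135 in KO. It was at 148, 210.1 and 144 in OE without Dox and at 792, 1239 and 1122 in OE with Dox. All KO libraries lay below all WT libraries, and all libraries with Dox lay above every other library. The KO log2 fold was -1.43 (SE 0.24, limma, Benjamini-Hochberg adjusted p = 0.00045) and the Dox log2 fold was 2.64 (SE 0.27, adjusted p = 9.5e-07). The 3 libraries of OE without Dox also lay below WT, with a log2 fold of -1.02 (SE 0.27, limma adjusted p = 0.031).

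COL6A3 was close to undetected in KO, at 0 to 4.62 normalized counts, and uneven in both control groups, at 0, 49.2 and 9.53 in WT and 1.83, 35.2 and 6.35 in OE without Dox. With Dox it reached 506, 697 and 336, above every other library. Its Dox log2 fold of 5.76 (SE 1.23, limma adjusted p = 0.0037) was the largest among the tested collagens. COL6A1 was at 1636, 1277 and 1557 in WT, 1117 to 1477 in KO, 1271, 1298 and 1373 in OE without Dox and 1874, 2645 and 2294 with Dox. Only the libraries with Dox were set apart, with a log2 fold of 0.78 (SE 0.14, limma adjusted p = 0.00038). COL7A1, which makes the anchoring fibrils of skin, and COL28A1 were not called in either comparison, with Dox log2 folds of -0.53 and -0.31.

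The region before the start of COL6A2 is shown because this gene changed in both directions, and that of COL6A3 because the gene had the largest fold. Both are 250 bases from RefSeq on GRCh38.p14, printed 5′ to 3′ on the strand of the gene, plus for COL6A2 (chr21:46097862-46098111) and minus for COL6A3 (chr2:237414165-237414414). Capitals mark the GC box GGGCGG on either strand.
COL6A2: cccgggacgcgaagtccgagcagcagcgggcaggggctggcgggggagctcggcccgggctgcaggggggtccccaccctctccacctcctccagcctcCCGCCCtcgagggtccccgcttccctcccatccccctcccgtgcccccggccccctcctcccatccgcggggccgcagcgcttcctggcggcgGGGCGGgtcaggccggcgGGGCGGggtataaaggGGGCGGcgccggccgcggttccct
COL6A3: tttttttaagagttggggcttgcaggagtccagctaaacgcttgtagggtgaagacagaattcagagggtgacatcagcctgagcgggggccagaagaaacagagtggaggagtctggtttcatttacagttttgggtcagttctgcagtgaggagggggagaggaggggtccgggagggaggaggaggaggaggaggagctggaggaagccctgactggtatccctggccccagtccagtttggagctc
The COL6A2 stretch has 4 GC boxes and 79.6% G and C, and the COL6A3 stretch has none and 56.0%. A GC box was found in 24 of 44 windows of collagen genes (54.5%) and in 45.0% of all 35116 RefSeq windows of 300 bases.

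The fibrillar collagens were all tested, 11 genes. In KO against WT 0 of 11 were called by limma on the 4 groups or by edgeR, and 0 had an unadjusted p under 0.05 in that limma fit. The same fit called 13.8% of all tested genes. Limma on KO and WT alone called COL1A1 lower (log2 fold -1.40, adjusted p = 0.041), and DESeq2 called COL3A1 lower (adjusted p = 0.0021). With Dox COL1A1, COL1A2 and COL11A1 were higher (27.3%, against 12.8% of all tested genes), while COL11A2 and COL24A1 were lower (18.2%, against 12.9%). COL11A1, a minor chain that sits inside fibrils and limits their width, was at 1006, 638 and 545 normalized counts in WT and 541 to 814 in KO. It was at 765, 751 and 679 in OE without Dox and 1512, 2423 and 1963 in OE with Dox. The Dox libraries lay above all others, with a log2 fold of 1.40 (SE 0.20, limma adjusted p = 4.4e-05). Its partner chain COL11A2 went from 54.5 ± 22.8 to 26.5 ± 9.38 (n = 3 each), with overlapping groups and a log2 fold of -0.99 (limma adjusted p = 0.041). The call was lost without OE with Dox replicate 1, or without OE without Dox replicate 1 or 3 (adjusted p = 0.11 to 0.20), and with the replicate numbers blocked (adjusted p = 0.064).

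COL1A1 and COL1A2 encode the chains of collagen I, the main collagen of bone, skin and tendon. COL1A1 was at 236, 265 and 195 in WT, 138, 124, 31.2, 86.2 and 104 in KO, 45.7, 330.4 and 68.0 in OE without Dox and 1008, 1352 and 251 with Dox. COL1A2 was at 115, 345 and 237 in WT, 66.5, 70.8, 120.0, 206 and 169 in KO, 81.4, 389.6 and 150.5 in OE without Dox and 809, 1481 and 512 with Dox. For both genes OE without Dox replicate 2 was the high library of its group, and for COL1A1 it exceeded the lowest library with Dox. The Dox log2 folds were 2.78 (SE 0.80, limma adjusted p = 0.023) for COL1A1 and 2.33 (SE 0.65, adjusted p = 0.020) for COL1A2. The COL1A1 call was lost without any 1 of OE with Dox 1 or 2 and OE without Dox 1 or 3 (limma adjusted p = 0.080 to 0.10). The COL1A2 call was lost without OE with Dox 2, OE without Dox 1 or OE without Dox 3 (limma adjusted p = 0.060 to 0.079).

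COL3A1, the fibrillar collagen of vessels and soft organs, varied widely between libraries of a group. It stood at 15.1, 1023 and 91.0 normalized counts in WT, 21.2, 15.1, 16.1, 28.7 and 5.37 in KO, 35.7, 812 and 69.8 in OE without Dox and 2209.7, 3175 and 481 in OE with Dox. Replicate 2 of WT and of OE without Dox exceeded the lowest library with Dox, so groups overlapped. Neither the KO log2 fold of -2.82 (SE 1.34, limma adjusted p = 0.23) nor the Dox log2 fold of 3.55 (SE 1.5, adjusted p = 0.11) was called. Without OE without Dox replicate 2 the Dox log2 fold was 4.88 (limma adjusted p = 0.029), and with all libraries but without the robust option the adjusted p was 0.037. Without WT replicate 2 the KO log2 fold was -1.24 (limma adjusted p = 0.60).

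COL2A1, the collagen of cartilage and of the notochord sheath, was at 1784, 1300.4 and 1430.2 in WT and 1263, 1389, 889, 1329 and 1414 in KO. It was at 1619, 2312 and 2116 in OE without Dox and 1041, 2503 and 1879 in OE with Dox. The groups overlapped, and the Dox log2 fold of -0.23 (95% interval -0.77 to 0.31) was not called. COL24A1 fell with Dox from 25.6, 31.5 and 33.5 to 8.31, 9.29 and 6.45, below every other library, with a log2 fold of -1.79 (SE 0.41, limma adjusted p = 0.0028). COL5A1, COL5A2, COL5A3 and COL27A1 were not called in either comparison, and their Dox log2 folds lay between -0.74 and 0.94. With the replicate numbers blocked, COL5A1 was called higher with Dox (log2 fold 0.94, limma adjusted p = 0.011), as it was by DESeq2.

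**Figure D3:**
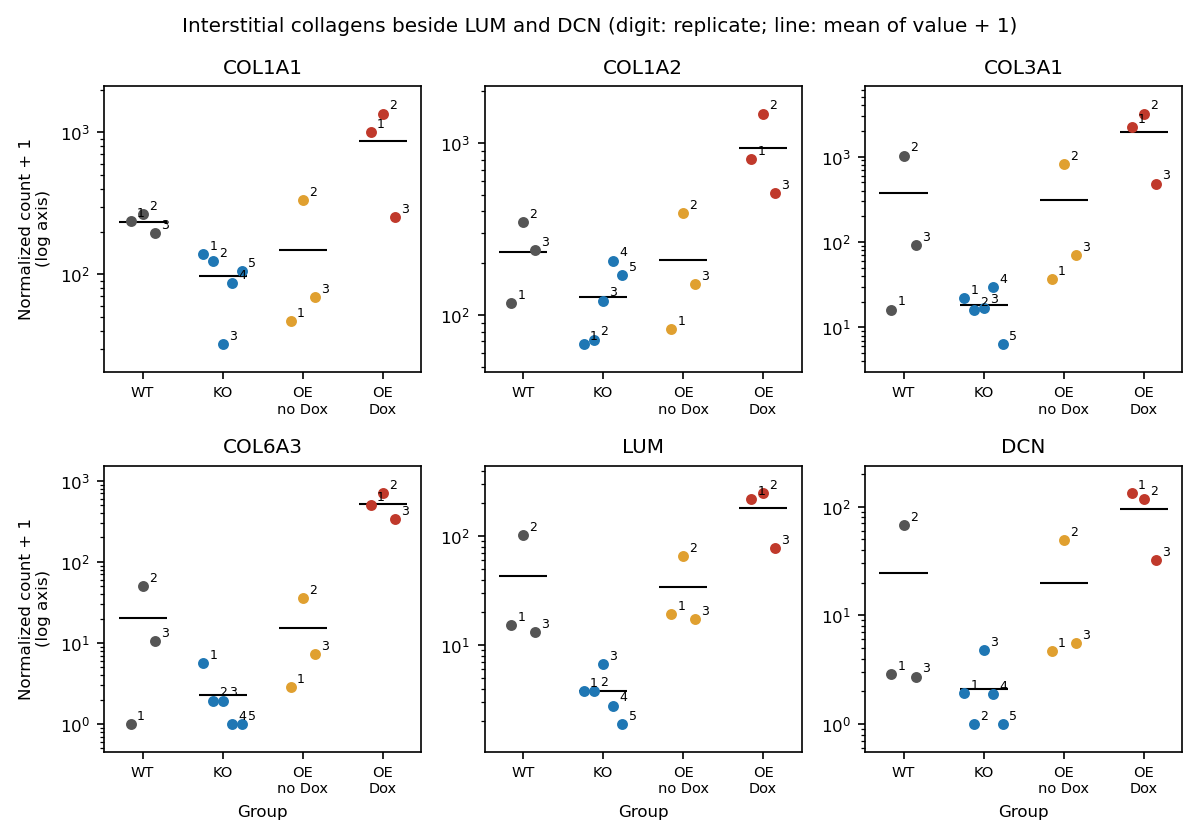
Normalized count plus 1 on a log axis for COL1A1, COL1A2, COL3A1, COL6A3 and the matrix proteoglycan genes LUM and DCN, with 1 point per library in each of the 4 groups, its replicate number beside it and a line at the mean. For COL3A1, COL6A3, LUM and DCN, replicate 2 of WT and of OE without Dox lies far above the others of its group.

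The libraries high for COL3A1 were also high for the stromal genes LUM and DCN, which were chosen after their values were seen. LUM and DCN, which encode the small collagen-binding proteoglycans lumican and decorin, were at 101 and 67.0 normalized counts in WT replicate 2, against 12.1 to 14.2 and 1.73 to 1.89 in the other WT libraries. In OE without Dox replicate 2 they were at 64.8 and 48.1, against 16.3 to 18.3 and 3.66 to 4.53. With Dox LUM was at 220, 245 and 77.4 and DCN at 131, 117 and 31.3. Of 14 mesenchyme markers, which include LUM and DCN, 12 were tested, and 8 were higher with Dox (66.7%, against 12.8% of all tested genes) and 4 lower in KO (33.3%, against 7.15%). Their summed count was 256 to 470.1 in WT, 164 to 337 in KO, 229 to 424 in OE without Dox and 963 to 1576 in OE with Dox. In WT replicate 2 this sum was 470.1, against 357.8 in replicate 1 and 255.5 in replicate 3. OE without Dox replicate 2 was at 423.8, against 331.9 and 229.4 in replicates 1 and 3. These sums include LUM and DCN. With both taken out, the other mesenchyme markers summed lower in WT replicate 2 than in WT replicate 1, and higher than in WT replicate 3. In OE without Dox, replicate 2 was then near replicate 1 and above replicate 3. The higher sums of replicate 2 over replicate 1 thus came with LUM and DCN, and no test was made of the other markers.

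Other cell types with collagens were checked in the same way. Of 8 epithelium markers 7 were tested, with 5 higher with Dox (71.4%, against 12.8% of all tested genes) and 3 lower in KO (42.9%, against 7.15%). Their sum was 177 to 300.1 for WT, 91.6 to 131 for KO, 117 to 230.4 for OE without Dox and 385 to 836 with Dox. Of 8 endothelium markers 3 were tested, 2 of them higher with Dox and 2 lower in KO, against the same 12.8% and 7.15%, and PECAM1 had at most 3 reads in every library. The endothelium sum was 49.2 to 88.5 in WT, 12 to 27.4 in KO, 32.0 to 66.6 in OE without Dox and 110 to 186 with Dox. Of 9 cartilage markers 7 were tested, with 3 higher and 2 lower with Dox, against 12.8% and 12.9% of all tested genes, and 2 higher in KO, against 6.64%. The cartilage sum was 657 to 703 in WT, 1489 to 1808 in KO, 1467 to 1884 in OE without Dox and 469 to 686 with Dox. Of 9 neural crest markers 7 were tested, with 1 higher and 1 lower with Dox, near the shares of all tested genes, and 5 lower in KO, against 7.15%. The neural crest sum was 1009 to 1188 in WT, 881 to 1683 in KO, 786 to 1294 in OE without Dox and 194 to 421 with Dox. SOX10 was at 0 in every library. Of 10 choroid plexus and hem markers, 2 were higher and 4 lower with Dox, against 12.8% and 12.9% of all tested genes. In KO 7 of these markers were lower, against 7.15%. The choroid plexus and hem sum was 1916 to 3202 in WT, 1396 to 2071 in KO, 1624 to 2457 in OE without Dox and 2670 to 3740 with Dox. Of 8 neuron markers, 1 was higher and 6 lower with Dox, against 12.8% and 12.9% of all tested genes. In KO 6 of the neuron markers were higher, against 6.64%. The neuron sum was 8438 to 10035 in WT, 15414 to 19133 in KO, 15202 to 17226 in OE without Dox and 4864 to 5669 with Dox. Of 8 progenitor markers, 2 were higher and 5 lower with Dox and 1 higher and 4 lower in KO, against 12.8% and 12.9% with Dox and 6.64% and 7.15% in KO for all tested genes. The progenitor sum was 22118 to 25550.4 in WT, 14943 to 18865 in KO, 19514 to 19675 in OE without Dox and 18361 to 24075 with Dox. The part of these cell types in the collagen results was not tested.

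Of the network-forming collagens, 6 of 9 genes were tested. COL4A1, a chain of the ubiquitous basement membrane trimer, was at 536, 504 and 414 normalized counts in WT and 689, 666, 332, 698 and 605 in KO. It was at 514, 632 and 457 in OE without Dox and 859, 1531 and 932 in OE with Dox. The libraries with Dox lay above all others, with a log2 fold of 1.01 (SE 0.26, limma adjusted p = 0.0077). Its partner COL4A2 was at 1769, 1578 and 1381 in WT, 1956, 1974, 1121, 2125 and 1779.8 in KO, 1672, 1820.2 and 1547 in OE without Dox and 2149, 3312 and 2175 with Dox. The same libraries were highest, but the Dox log2 fold of 0.57 (SE 0.21, limma adjusted p = 0.051) was not called. It was called with the replicate numbers blocked (limma adjusted p = 0.014), by edgeR and DESeq2, and without OE with Dox replicate 1 or 3.

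COL4A5 and COL4A6 encode the chains of another basement membrane trimer, found in smooth muscle and some epithelia. COL4A6 was at 1176, 1078 and 946 in WT, 691, 698, 548, 737 and 610.3 in KO, 850.4, 1074 and 1596 in OE without Dox and 736, 1161 and 877 with Dox. Every KO library lay below every WT and every OE without Dox library. The KO log2 fold against WT was -0.70 (SE 0.18, limma adjusted p = 0.012), a call lost without WT replicate 1 (log2 fold -0.63, adjusted p = 0.056). COL4A6 was the collagen called in KO against OE without Dox, with a log2 fold of -0.80 (SE 0.18, limma adjusted p = 0.021). That call was lost without KO replicate 3 or 5 or OE without Dox replicate 2 or 3 (adjusted p = 0.052 to 0.20), and with the replicate numbers blocked (log2 fold -0.82, adjusted p = 0.083). COL4A5 was at 1228 ± 283 in WT and 1250.4 ± 133 in KO, and its KO log2 fold was 0.04 (95% interval -0.28 to 0.36).

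COL8A1, a short-chain collagen of vessel walls and of the corneal endothelium, was at 7.57, 2.68 and 2.60 in WT and 40.6, 102, 12.3, 78.2 and 106 in KO. It was at 10.1, 26.8 and 27.2 in OE without Dox and 1.85, 7.44 and 2.77 with Dox. KO lay above WT, with a log2 fold of 3.49 (SE 0.61, limma adjusted p = 0.00088), and Dox libraries lay below those without Dox, with a log2 fold of -2.19 (SE 0.69, adjusted p = 0.026). The Dox call was lost without OE with Dox 1 or 3, or OE without Dox 2 or 3 (limma adjusted p = 0.084 to 0.10). In WT 2 libraries, and with Dox 2 libraries, were at or below what 3 reads give. COL8A2 was at 2.74 to 8.33 without Dox and 10.1 to 34.4 with Dox. In the main fit COL8A2 was not called (log2 fold 1.78, limma adjusted p = 0.067). It was called with the replicate numbers blocked (limma adjusted p = 0.014), by edgeR and by DESeq2. No library outside OE with Dox reached the filter value of 10 for this gene, so it was tested only because it was high there.

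The collagen IV genes lie head to head, and the sequences between their starts are shown because each pair shares them. The COL4A1 and COL4A2 starts are 127 bases apart in RefSeq on GRCh38.p14, and the 126 bases between them (chr13:110307158-110307283) are printed whole, on the plus strand. The COL4A6 and COL4A5 starts are 380 bases apart, and the 121 bases that the 250-base upstream windows of both genes share (chrX:108439588-108439708) are printed on the plus strand. Capitals mark the words CCAAT and GGGCGG on either strand.
COL4A1-COL4A2: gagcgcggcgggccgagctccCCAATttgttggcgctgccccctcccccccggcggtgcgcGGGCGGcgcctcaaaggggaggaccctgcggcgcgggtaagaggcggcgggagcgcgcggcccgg
COL4A6-COL4A5: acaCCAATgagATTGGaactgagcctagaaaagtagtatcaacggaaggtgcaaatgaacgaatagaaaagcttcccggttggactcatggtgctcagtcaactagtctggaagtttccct
The first holds 1 CCAAT word and 1 GC box, and the second holds 2 CCAAT words and no GC box. CCAAT was found in 14 of 44 collagen windows (31.8%) and in 34.6% of all windows. COL4A6 has another RefSeq start 1036 bases away, which that interval does not cover.

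Chains of 1 trimer were compared by their ratio in each library. The per-base ratio of COL4A6 to COL4A5 was 0.896 to 1.29 in WT and 0.586 to 0.730 in KO, without overlap. Its KO log2 difference was -0.75, with a two-sided exact permutation p of 0.036 (adjusted over 8 ratio tests to 0.14), which is the smallest p that 5 against 3 libraries can give. COL4A1 to COL4A2 was 0.394 to 0.420 in WT, 0.389 to 0.463 in KO, 0.388 to 0.456 in OE without Dox and 0.525 to 0.607 with Dox. The Dox log2 difference of 0.44 had an exact permutation p of 0.10, the smallest that 3 against 3 can give (adjusted 0.16). COL6A2 to COL6A1 was 0.210 to 0.275 in WT, 0.0709 to 0.139 in KO, 0.109 to 0.168 in OE without Dox and 0.439 to 0.507 with Dox. Its log2 differences were -1.24 in KO (exact permutation p = 0.036, adjusted 0.14) and 1.87 with Dox (exact permutation p = 0.10, adjusted 0.16). The ratio of COL4A6 to COL4A5 was 0.781 to 1.09 without and 0.549 to 0.644 with Dox (exact permutation p = 0.10, adjusted 0.16), and that of COL1A1 to COL1A2 overlapped between groups in both comparisons (exact permutation p = 0.54 and 0.40). No ratio passed the adjusted threshold, which these group sizes cannot reach over 8 tests.

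**Figure D4:**
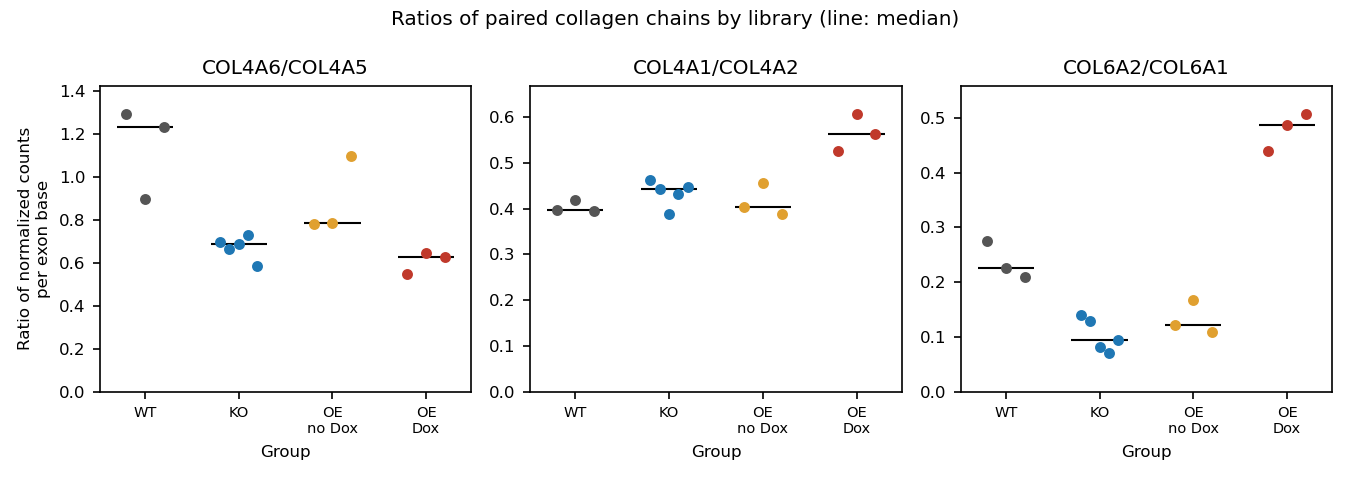
Ratio of normalized counts per exon base for pairs of collagen chains (vertical axis, from 0) in each library of the 4 groups, with a line at the median. COL6A2 to COL6A1 in KO lies below WT and with Dox lies above every other library, and COL4A6 to COL4A5 in KO lies below WT.

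Of the FACIT collagens 7 of 10 genes were tested, with 2 higher in KO (28.6%, against 6.64% of all tested genes) and 1 lower with Dox (14.3%, near the 12.9% of all tested genes). COL22A1, which is known from tissue junctions such as that of muscle and tendon, was at 357, 196 and 298 normalized counts in WT and 933, 809, 511, 1041 and 1012 in KO. It was at 687, 455 and 702 in OE without Dox and 612, 353 and 376 in OE with Dox. All KO libraries lay above WT, with a log2 fold of 1.60 (SE 0.26, limma adjusted p = 0.00039), but they overlapped OE without Dox (log2 fold 0.47, SE 0.26, adjusted p = 0.71). OE without Dox itself lay above WT, with a log2 fold of 1.13 (SE 0.29, limma adjusted p = 0.029).

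COL9A1, COL9A2 and COL9A3 encode the chains of collagen IX, which coats cartilage fibrils. COL9A3 was at 84.3, 49.2 and 36.4 in WT, 213, 229, 85.0, 129 and 169 in KO, 102, 61.1 and 86.1 in OE without Dox and 120.0, 238 and 109.7 with Dox. Its KO log2 fold was 1.53 (SE 0.34, limma adjusted p = 0.0056), with no overlap, while the Dox log2 fold of 0.84 (SE 0.38, adjusted p = 0.12) was not called. COL9A1 was at 387, 415 and 424 in WT, 283, 294, 386, 375 and 437 in KO, 292, 330.4 and 408 in OE without Dox and 192, 165 and 218 with Dox. The libraries with Dox lay below all others, with a log2 fold of -0.83 (SE 0.18, limma adjusted p = 0.0016). COL9A2 differed by a log2 fold of 0.00 with Dox (95% interval -0.45 to 0.45). Differences between the chains of this trimer were not tested. COL12A1, COL14A1 and COL16A1 were at means of 4.79 to 26.0 over the groups and were not called in either comparison.

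Of the 4 transmembrane collagens, COL13A1 and COL23A1 were higher with Dox, and COL23A1 and COL25A1 were lower in KO. All were at low levels, with group means of at most 66.0 normalized counts. COL13A1, found at the neuromuscular junction, went from 26.9 ± 10.2 to 66.0 ± 25.5 with Dox (log2 fold 1.25, SE 0.41, limma adjusted p = 0.030). This call was lost without OE with Dox 1 or 2 or OE without Dox 2 or 3 (adjusted p = 0.074 to 0.13). COL23A1 was at 13.3 to 16.1 in WT and 3.58 to 6.61 in KO (log2 fold -1.39, SE 0.36, limma adjusted p = 0.013), and at 5.44 to 17.6 without and 16.6 to 27.0 with Dox (log2 fold 1.29, SE 0.41, adjusted p = 0.024). Its KO call was lost without WT replicate 2 or 3 (adjusted p = 0.053 to 0.056), and its Dox call without OE with Dox 2 or 3 or OE without Dox 1 or 3 (adjusted p = 0.066 to 0.12). COL25A1, a neuronal collagen first known from amyloid plaques, was at 17.3 to 29.3 in WT and 8.50 to 14.3 in KO (log2 fold -0.99, SE 0.31, limma adjusted p = 0.041). The COL25A1 call was lost without WT replicate 1 or 2 or any 1 of KO replicates 1 to 4 (adjusted p = 0.052 to 0.15). COL17A1, a hemidesmosome component, was at 2.72 to 7.40 without and 10.2 to 18.6 with Dox. In the main fit COL17A1 was not called (log2 fold 1.32, limma adjusted p = 0.071). It was called with the replicate numbers blocked (limma adjusted p = 0.045) and by edgeR. No library outside OE with Dox reached the filter value of 10 for this gene, so it was tested only because it was high there.

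COL15A1, COL18A1 and COL26A1, the remaining 3 genes, all rose with Dox, against 12.8% of all tested genes. In KO 0 of the 3 were called with all libraries by limma, edgeR or DESeq2, against 13.8% of all tested genes by limma. Of the 3, 1, COL18A1, had an unadjusted limma p under 0.05 (log2 fold -0.53, adjusted p = 0.086). Without KO replicate 2 it was called lower (log2 fold -0.62, limma adjusted p = 0.044). COL18A1, a basement membrane collagen whose end piece is endostatin, was at 1103, 792 and 732 in WT, 598, 766, 429.9, 539.9 and 706 in KO, 711, 756 and 848 in OE without Dox and 1975, 3362 and 3029.6 with Dox. Dox libraries lay above every other library, with a log2 fold of 1.82 (SE 0.22, limma adjusted p = 6.3e-06). The COL18A1 exons share 18.5% of their bases with SLC19A1 on the other strand, a gene that was also higher with Dox (log2 fold 0.59, limma adjusted p = 0.025). The strand setting of the counting is not given in the sources used here, so the COL18A1 value is uncertain to that extent. COL15A1, a relative of COL18A1, was at 2.72 to 6.48 without and 10.2 to 33.5 with Dox (log2 fold 1.90, SE 0.46, limma adjusted p = 0.0048). It reached the filter value of 10 in no library outside OE with Dox, so it was tested only because it was high there.

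COL26A1 was at 191, 151 and 204 in WT, 185, 205, 114, 161 and 158 in KO, 142, 165 and 215 in OE without Dox and 433, 1039 and 882 with Dox. The Dox libraries lay above all others, with a log2 fold of 2.1 (SE 0.27, limma adjusted p = 1.9e-05). The 250 bases before its RefSeq start (GRCh38.p14, chr7:101362625-101362874, plus strand) are shown because they hold a TCF/LEF word, in capitals on the minus strand.
COL26A1: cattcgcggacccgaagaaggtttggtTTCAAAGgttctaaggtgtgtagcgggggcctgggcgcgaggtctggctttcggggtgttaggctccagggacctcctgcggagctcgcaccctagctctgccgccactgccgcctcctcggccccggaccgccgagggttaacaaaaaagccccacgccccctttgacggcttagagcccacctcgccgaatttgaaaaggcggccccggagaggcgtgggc
The words searched on both strands were CTTTGAA or CTTTGAT and further CTTTGTA or CTTTGTT. One or more was found in 6 of 44 collagen windows of 300 bases (13.6%) and in 13.8% of all 35116 windows. The 6 windows belong to COL10A1, COL13A1, COL15A1, COL17A1, COL24A1 and COL26A1. Of the 5 tested among these, 3 were higher and 1 lower with Dox, against 12.8% and 12.9% of all tested genes and 33.3% and 11.1% of the tested collagens. COL17A1 was not called and COL10A1 was not tested. COL15A1 and COL17A1 passed the filter only through OE with Dox. RefSeq windows were matched for 32 of the 44 genes.

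**Figure D5:**
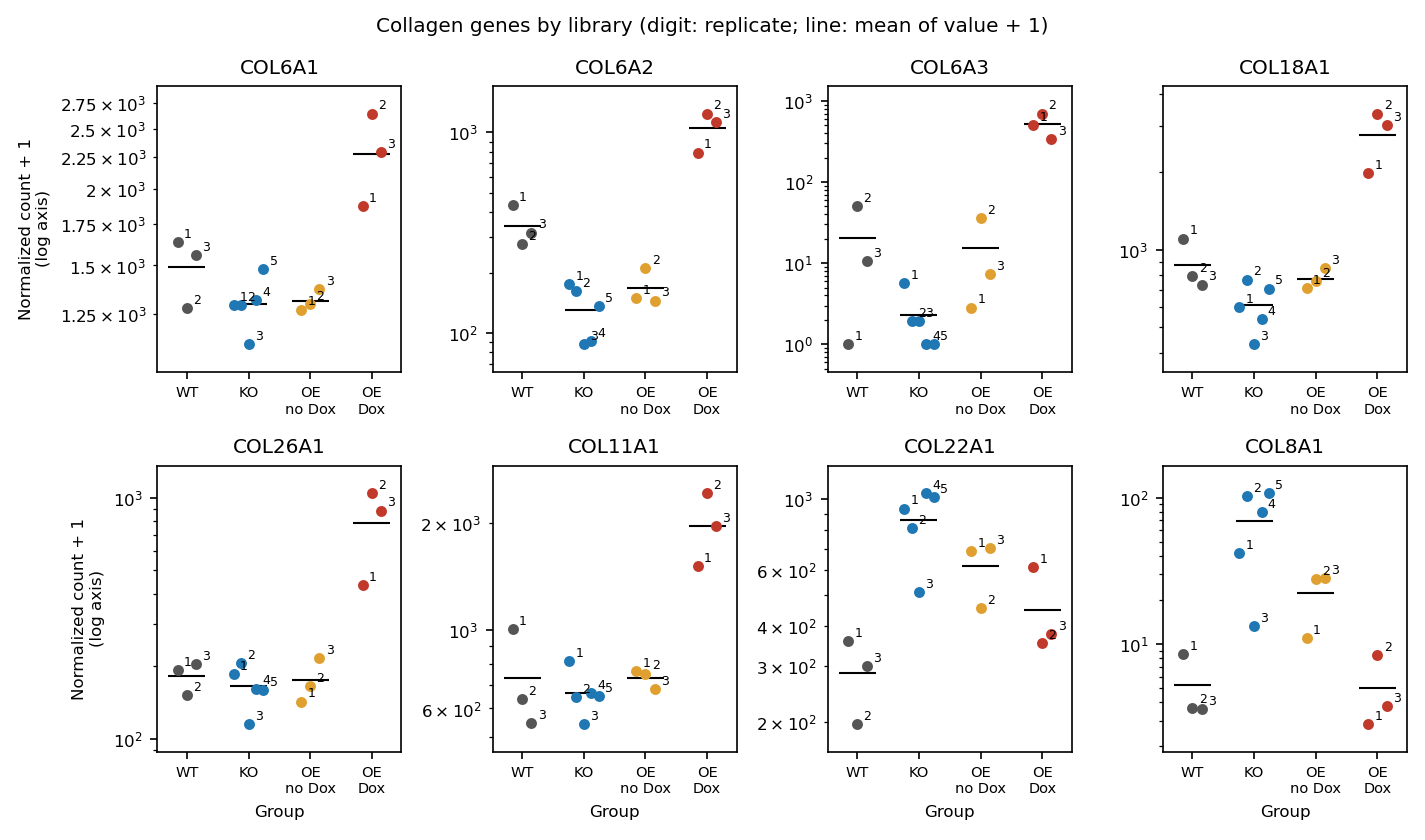
Normalized count plus 1 on a log axis for COL6A1, COL6A2, COL6A3, COL18A1, COL26A1, COL11A1, COL22A1 and COL8A1, with 1 point per library in each of the 4 groups, its replicate number beside it and a line at the mean. COL6A2 in KO lies below WT and with Dox lies above every other library, COL22A1 and COL8A1 in KO lie above WT, and COL18A1 and COL26A1 with Dox lie above every other library.

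COL6A2, COL8A1 and COL23A1 were called in both main comparisons, and all 3 in opposite directions. Among all tested genes, 1337 were called in both, or 7.82%, and 83.4% of these were opposite. The main comparisons share no libraries. Between the control groups, COL22A1 was higher and COL6A2 lower in OE without Dox than in WT, 1 of 36 collagens or 2.78% in each direction, against 3.43% and 2.32% of all tested genes and 5.74% in either direction. Groups did not overlap for 11.1% of the collagens, against 23% of all tested genes. Both calls were lost without single libraries. COL22A1 lost its call without OE without Dox 1 or 3 or WT 2 or 3 (limma adjusted p = 0.076 to 0.13), and COL6A2 without OE without Dox 1 or 3 or WT 1 or 3 (adjusted p = 0.081 to 0.13). In KO against OE without Dox, 1 of 36 collagens was called, against 2.11% of all tested genes. Higher calls were 0 by limma, edgeR and DESeq2, against 0.351% of all tested genes, while COL8A1 and COL9A3 were higher at an unadjusted limma p under 0.05. The 1 lower call compares with 1.75%, and groups did not overlap for 13.9% of the collagens, against 6.86%. In OE with Dox against WT, which shares the Dox libraries with the main comparison, 13 collagens were higher and 3 lower, 36.1% and 8.33%, against 10.4% and 10.1% of all tested genes (20.5% in either direction). Groups did not overlap for 58.3%, against 31.6%. Without OE with Dox replicate 2, 8 were higher.

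Single libraries moved many collagens together. OE with Dox replicate 2 was the highest of its group for 31 of the 36 tested collagens, and its collagen share was 0.608%, against 0.388% and 0.404% in replicates 1 and 3. KO replicate 3 was the lowest of its group for 23 of the 36, with a share of 0.171%, against 0.239% to 0.253% in the other 4.

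Genes that make, process or bind collagen were read from lists beside the members. Changes in KO are given against WT. Against OE without Dox, 0 genes of the cross-linking, receptor and breakdown lists were called in KO, against 2.11% of all tested genes. In the lists of chain modification and of partners, the calls were COLGALT2, P3H2, LAMA4, LAMB1, FBN1, FBN2 and LUM, all lower, against 1.75%. Of genes named below, ADAMTS3 and FBN2 were already lower, and MMP16 and VCAN already higher, in OE without Dox than in WT. Of 23 tested genes for chain modification, folding and export, 13 rose with Dox (56.5%, against 12.8% of all tested genes) and 4 were lower in KO (17.4%, against 7.15%). The median Dox log2 fold was 0.61. COLGALT2, a galactosyltransferase that acts on collagen, went from 185 ± 16.7 to 3182 ± 473 with Dox (log2 fold 4.09, SE 0.20, limma adjusted p = 9.8e-11) and from 197 ± 43.9 to 104 ± 22.8 in KO (log2 fold -0.91, adjusted p = 0.0015). P3H2, a prolyl 3-hydroxylase, went from 34.0 ± 16.2 to 653 ± 63.9 with Dox (log2 fold 4.32, limma adjusted p = 1.9e-08) and fell in KO (log2 fold -1.45, adjusted p = 0.0021). CRTAP, a partner in prolyl 3-hydroxylation, fell in KO (log2 fold -1.13, limma adjusted p = 0.00020) and rose with Dox (log2 fold 0.72, adjusted p = 0.011). The latter call was lost without OE with Dox 2 or 3 (adjusted p = 0.062 to 0.079). PPIB, the prolyl isomerase cyclophilin B, rose with Dox (log2 fold 0.88, limma adjusted p = 0.00016).

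Of 13 tested genes for propeptide removal and cross-linking, 3 rose (23.1%, against 12.8% of all tested genes) and 2 fell with Dox (15.4%, near the 12.9% of all tested genes), and 3 fell in KO (23.1%, against 7.15%). ADAMTS3, a procollagen N-propeptidase, was at 384 ± 145 in WT, 71.5 ± 28.2 in KO, with 81.3 ± 18.8 in OE without Dox and 29.0 ± 12.4 with Dox, and fell in both comparisons (KO log2 fold -2.41, limma adjusted p = 0.00011, and Dox -1.54, adjusted p = 0.0060). LOXL2, a lysyl oxidase that cross-links collagen IV, fell in KO (log2 fold -1.40, limma adjusted p = 0.00037). Its relative LOXL1 fell with Dox (log2 fold -0.93, limma adjusted p = 0.0020). TLL1, a procollagen C-proteinase of the BMP1 family, rose with Dox (log2 fold 4.39, limma adjusted p = 0.0014).

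Of 7 tested collagen receptors, 2 rose and 3 fell with Dox, against 12.8% and 12.9% of all tested genes, and 1 fell in KO, against 7.15%. ADGRG1, the receptor of collagen III in the developing brain, fell from 1769.6 ± 136 to 615 ± 149 with Dox (log2 fold -1.55, SE 0.18, limma adjusted p = 4.6e-06). DDR1, a receptor tyrosine kinase, fell from 3419.9 ± 332 to 1937 ± 53.7 (log2 fold -0.82, limma adjusted p = 4.1e-05). The integrin chains differed, as ITGA2 fell (log2 fold -1.31, limma adjusted p = 1.2e-05) and ITGA1 rose (log2 fold 2.15, adjusted p = 0.00061). Of 9 tested genes of collagen breakdown, 3 rose and 4 fell with Dox (33.3% and 44.4%, against 12.8% and 12.9% of all tested genes), and 1 rose and 3 fell in KO (11.1% and 33.3%, against 6.64% and 7.15%). MMP14 rose with Dox (log2 fold 2.74, limma adjusted p = 1.5e-08), as did MMP2, the gelatinase that it activates (log2 fold 2.76, adjusted p = 6.0e-06), which fell in KO (log2 fold -1.57, adjusted p = 0.0011). MMP15 and MMP16, relatives of MMP14, fell with Dox (log2 folds -0.98 and -0.62, limma adjusted p = 0.00022 and 0.0045), and MMP16 rose in KO (log2 fold 0.77, adjusted p = 0.00055).

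Of 19 tested basement membrane partners, 11 rose with Dox (57.9%, against 12.8% of all tested genes) and 7 fell in KO (36.8%, against 7.15%). The 2 that fell with Dox and the 1 that rose in KO are 10.5% and 5.26%, near the 12.9% and 6.64% of all tested genes. The laminin chain LAMB1 was at 123 ± 9.87 in WT, 48.5 ± 16.9 in KO, with 119 ± 48.2 in OE without Dox and 1233 ± 444 with Dox, with log2 folds of -1.39 in KO (limma adjusted p = 0.0026) and 3.37 with Dox (adjusted p = 5.0e-07). The linker NID2 had log2 folds of -1.67 in KO (limma adjusted p = 0.00097) and 3.52 with Dox (adjusted p = 4.7e-07), and FREM2 rose with Dox (log2 fold 4.01, adjusted p = 5.3e-09). LAMA4, a laminin chain of vessels, fell in KO (log2 fold -3.11, limma adjusted p = 5.0e-06) and was not called with Dox (log2 fold -0.49).

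Of 13 tested fibril partners, LUM and DCN among them, 9 rose with Dox (69.2%, against 12.8% of all tested genes), and 1 rose and 6 fell in KO (7.69% and 46.2%, against 6.64% and 7.15%). The fibrillins FBN1 and FBN2 fell in KO (log2 folds -1.70 and -2.76, limma adjusted p = 6.1e-06 and 6.2e-08) and rose with Dox (1.95 and 1.59, adjusted p = 1.7e-06 and 4.4e-05). BGN, the proteoglycan biglycan, rose with Dox (log2 fold 4.33, limma adjusted p = 4.8e-06), and its fall in KO (log2 fold -1.63, adjusted p = 0.023) was lost without WT 1 or 2 or KO 3 (adjusted p = 0.051 to 0.094). VCAN, the proteoglycan versican, rose in both (log2 folds 0.50 and 1.0, limma adjusted p = 0.0032 and 4.2e-06).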

How the data were processed

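RNA from 14 libraries in 4 groups was compared. The deposited values are a signal: read counts per gene that the authors divided by 1 size factor per library, as tested on the values, of which 100% are whole reads at a tolerance of 0.01 (1 read is worth 0.866 to 0.947). Build hg38 and the tools HTSeq 0.9.1, TopHat2 2.1.1, DESeq2 and R 3.4.0 are listed, without roles, in the submitters' processing notes. Annotation release and strand setting are not given in the sources used here. GENCODE 44 named 56948 of the identifiers and left 1103 unnamed, and gave coordinates and exon lengths.

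Genes with a value of at least 10 in at least 3 libraries were tested in R 4.3.3 with limma 3.58.1, on the log2 scale after adding a pseudocount of 1, which understates the change of low genes. The fit had all 14 libraries, a mean per group, empirical Bayes with trend and robust options, two-sided tests and Benjamini-Hochberg adjustment over 17102 genes per comparison, at 0.05. Ratios were compared by exact permutation (scipy 1.17.1). Motifs were searched in RefSeq windows from 250 bases before to 50 after a start. The procedure was tested on simulated data.

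Members, lists and tests were chosen with earlier results of these data known. Values per library are given for called collagens with a group mean of at least 100 and for 6 collagens of types I to IV, with COL8A1 and COL24A1 added after their values were seen. LUM and DCN were likewise chosen after their values were seen. At most 4 members of each other list are named, by smallest adjusted p.

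Libraries share the numbers 1 to 3 across groups. Deviations from the group mean correlated at 0.22, 0.25 and 0.40 for the 3 pairs of OE with and without Dox, and at 0.22, 0.17 and 0.28 for OE without Dox and WT, so these appear paired in the data. The main fit and the ratio tests did not use this pairing. It entered only the block by number, fitted on the libraries numbered 1 to 3 of all 4 groups. The alternatives were other pseudocounts, filters and scalings, a block by number, fits of 2 groups, DESeq2 1.42.0 or edgeR 4.0.16 run on the whole reads (edgeR called 1194 genes higher and 1224 lower in KO, and 2180 and 2240 with Dox), and leaving out each library. Leaving out WT 2 and OE without Dox 2 together was added after COL3A1 was seen to be high in both. Depth was 5233270 to 5639725 reads in genes per library.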

Additional observations from a re-analysis of the deposited data

Results flagged for a closer look

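In 61 sets of 5 KO libraries, 9 had a library far from the other 4 by Dixon's test, where chance flags about 1 in 20 such groups. KO replicate 3 was low for COL2A1 (889, others 1263 to 1414 normalized counts), COL4A1 (332, others 605 to 698), COL4A5 (1018, others 1267 to 1344) and MMP15 (364, others 509 to 555). KO replicate 5 was high for COL15A1 (7.16, others 2.77 to 3.78), COL17A1 (6.26, others 0.898 to 1.89) and ITGA1 (33.1, others 24.6 to 26.9). KO replicate 1 was high for COL6A3 (4.62, others 0 to 0.945), and KO replicate 2 for COL12A1 (36.8, others 7.39 to 15.1). No cause was tested.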

How the results depend on the processing

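Of the 7 collagens called in KO against WT, COL6A2, COL8A1, COL9A3 and COL22A1 kept their call under every alternative that tested them, and of the 16 called with Dox 10 did (COL4A1, COL6A1, COL6A2, COL6A3, COL9A1, COL11A1, COL15A1, COL18A1, COL24A1 and COL26A1). COL15A1 and COL24A1 did not pass the filter of 50 and were not tested with it. COL6A3 and COL15A1 passed the main filter only with the help of the OE with Dox libraries. The number lower in KO against WT was 4, and 2 with a filter of 50 or without WT 2 and OE without Dox 2. Leaving out single libraries gave 2 to 4 lower in KO, 2 to 5 lower with Dox (8 to 13 higher), 8 to 15 higher in OE with Dox against WT, 0 to 1 higher and 0 to 1 lower in OE without Dox against WT, and 0 to 1 higher and 0 to 1 lower in KO against OE without Dox. In OE without Dox against WT, 2 were higher with the 2 groups fitted alone or by DESeq2, and 0 with no filter or without both libraries. In KO against OE without Dox, lower counts were 2 with the 2 groups fitted alone, 3 by DESeq2 and 0 without both libraries. Signs turned for values near 0. In KO against WT, the PPIB log2 fold was 0.020 with TMM, 0.014 with upper-quartile scaling, 0.012 by edgeR, 0.070 with the replicate block and -0.13 to 0.091 over left-out libraries. DDR1 was at -0.030 without both libraries and -0.030 to 0.092 over left-out ones, and ITGA2 at -0.14 to 0.077. With Dox, COL2A1 was -0.51 to 0.12 over left-out libraries. The cause was not tested. With the replicate block, Dox calls were 16 higher and 3 lower, with COL4A2, COL5A1, COL8A2 and COL17A1 gained and COL11A2 lost. The block left the KO against WT counts at 3 higher and 4 lower, where the numbers do not pair the libraries (r = 0.24, -0.29 and 0.13). Of 12 libraries numbered 1 to 3, 10 correlated best with their own number. Depth limits low genes, since 3 reads are worth 2.60 to 2.84 normalized counts.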
